A study of Mus musculus with 24 samples.

Results

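The comparison described here asked how peritoneal tissue from mice given propionate together with butyrate differed from tissue of mice given propionate alone. It rested on 5 combination libraries and 6 propionate libraries, 11 of the 24 libraries of the series. The combination libraries were replicates 1, 2, 3, 4 and 6, and the propionate libraries were replicates 1 to 6. The libraries were chosen by measured values: combination replicate 5 was left out because it held the transcripts of B and T cells and almost none of muscle, and its values are given beside the results. The remaining libraries were 6 controls, labelled as having had no treatment, and 6 from mice given butyrate alone. All were polyA RNA libraries of mouse tissue labelled as peritoneum, from a study of peritoneal metastasis of ovarian cancer that also concerned anti-PD-1 therapy and gut microbial metabolites. Dose, duration, mouse strain and age, the tumour line and whether any of these mice had anti-PD-1 are not stated in the labels. The labels do not say that replicates are separate animals, so every p-value measures the spread between these libraries only.

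Gut bacteria ferment fibre into short-chain fatty acids, among them propionate and butyrate. They act on cells through G-protein-coupled receptors (Ffar2, Ffar3 and, for butyrate, Hcar2), enter cells through monocarboxylate carriers such as Slc16a1, and are burned as fuel. Butyrate also inhibits histone deacetylases, enzymes that remove acetyl groups from histones, and is widely described as acting on macrophages, neutrophils and T cells. Ffar2 is best known from neutrophils and other myeloid cells, and Hcar2 from adipocytes and myeloid cells.

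Levels are given as TPM, an abundance corrected for transcript length and for the size of the library, with all transcripts of a gene summed by gene name. Because TPM is scaled within each library, a gene can stand lower when others take more of the total. In bulk tissue, fewer cells of a type cannot be told apart from less RNA per cell.

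The libraries differed in what tissue they held. Skeletal muscle genes were the most abundant of the tissue lists in all 11 compared libraries, with the muscle actin Acta1 at 5384 to 26808 TPM in propionate and 10571 to 22685 TPM in combination. Wt1, a mesothelial and ovarian transcription factor, was at 336 TPM in propionate replicate 3 and 254 TPM in propionate replicate 4, and at 216 and 203 TPM in combination replicates 3 and 4. It was at 1.07 to 21.3 TPM in the other propionate libraries and at 4.33, 15.57 and 1.76 TPM in combination replicates 1, 2 and 6. The keratin Krt8 and the proliferation marker Mki67 were high in the same 4 libraries, at 137 to 243 TPM and 9.04 to 14.98 TPM. Both groups thus held 2 Wt1-high libraries, of 6 and of 5.

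Combination replicate 5 held the T cell receptor chain Trac at 190 TPM, against 1.45 to 19.6 TPM in the 11 compared libraries, and the B cell heavy chain Ighm at 993 TPM against 18.8 to 418 TPM. Its Acta1 was at 2.52 TPM. Adipose and epithelial transcripts were high there as well, with the adipokine Adipoq at 1529 TPM and the epithelial adhesion gene Epcam at 62.6 TPM. Combination replicate 2, which was kept, stood nearest to it in these. It held Adipoq at 604 TPM, Epcam at 11.5 TPM, the epithelial secreted protein gene Wfdc2 at 20.2 TPM and the milk casein Csn3 at 27.5 TPM, whereas the other 10 compared libraries had at most 266, 0.83, 0.11 and 0.09 TPM of these genes. Adipoq, Epcam, Wfdc2 and Csn3 were chosen after their values were seen. Several results in which replicate 2 was high are therefore also given without it.

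No gene passed an adjusted p of 0.05 with limma on log2(TPM + 1), in either direction, among the 13992 genes with at least 1 TPM in 5 or more of the 11 compared libraries (0% called higher and 0% called lower). The smallest adjusted p was 0.526. At an unadjusted p under 0.05, 568 genes (4.06% of those tested) had higher values with butyrate added and 31 (0.222%) lower values. Most genes leaned the same way, since 75.8% had a log2 fold change above 0 and the median over all genes was 0.13. That lean depended on the scaling: with median-of-ratios scaling the median was 0.00 and 49.1% were above 0, and the unadjusted counts were 530 higher and 212 lower. With quantile normalization the median was -0.03, 43.8% were above 0, and the counts were 432 higher and 307 lower. The count of higher genes also moved with single libraries, to 308 when either propionate replicate 1 or 2 was omitted, 1298 on omitting propionate replicate 3, 980 on omitting propionate replicate 4 and 320 on omitting combination replicate 2 (2.29%, with 26 lower, 0.186%, and 73.6% of genes above 0). The count of lower genes became 47 on omitting propionate replicate 3 and 52 on omitting propionate replicate 4. With combination replicate 5 included, the unadjusted counts were 1223 higher (8.74%) and 63 lower (0.45%), 77.8% of genes were above 0, and again none passed adjustment. A limma fit that weighted each library by how closely it followed its group called 3195 genes higher and 136 lower at an adjusted p under 0.05. Its weights ran, within propionate, from 0.11 and 0.16 for the Wt1-high replicates 3 and 4 to 6.65 for replicate 5.

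The genes leading the higher side, in order of their unadjusted p, included Dapk1, Alox15, Ms4a4a, Pf4, Pglyrp1, Rab27a, Retnlg, Cd302 and Ccl9, and most are known from macrophages, neutrophils or their products. Their log2 fold changes ran from 0.58 to 1.40 and their adjusted p with limma from 0.526 to 0.751. In 6 of these 9, every combination library was above every propionate library. The 9 were picked by their p in this same comparison, which largely sets how well the groups separate in them. Across all genes tested that held for 29 (0.207%) in this direction and for 4 (0.0286%) in the other.

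Pf4, the chemokine platelet factor 4, made by megakaryocytes and by some macrophages, was at 47.5 to 76.5 TPM in propionate with a median of 54.2 TPM. In combination replicates 1, 2, 3, 4 and 6 it was at 112, 141, 112, 95.1 and 136 TPM. The groups did not overlap. The log2 fold change was 1.03 ± 0.23 (SE; adjusted p = 0.526 with limma). The left-out library, at 48.7 TPM, lay within the propionate range.

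Ms4a4a, a membrane protein of macrophages, was at 2.75 to 7.89 TPM in propionate (median 4.535 TPM). In combination replicates 1, 2, 3, 4 and 6 it was at 10.51, 11.1, 12.55, 11.14 and 10.11 TPM, a narrow band above every propionate library. Its log2 fold change was 1.10 ± 0.25 (SE; adjusted p = 0.526 with limma). Combination replicate 5 held 6.39 TPM, again inside the propionate range.

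Alox15, the lipoxygenase that marks resident peritoneal macrophages and eosinophils in the mouse, was at 1.30 to 2.28 TPM in propionate (median 1.925 TPM). In the 5 combination libraries it was at 3.15, 3.23, 5.63, 3.31 and 4.18 TPM. The groups did not overlap, and the log2 fold change was 0.77 ± 0.17 (SE; adjusted p = 0.526 with limma). In the left-out library it was at 0.93 TPM, below every propionate library.

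Retnlg, a resistin-like protein of neutrophils, had the largest log2 fold change of the 9, at 1.40 ± 0.32 (SE; adjusted p = 0.526 with limma). It was at 1.27 to 4.81 TPM in propionate (median 1.815 TPM) and at 5.23, 8.40, 9.21, 4.80 and 10.85 TPM in combination. Combination replicate 4 fell just short of the highest propionate library, and the others were above it. Pglyrp1, a peptidoglycan-binding protein of neutrophil granules, was at 0.70 to 2.70 TPM in propionate (median 1.835 TPM) and at 3.62, 3.66, 5.74, 4.24 and 3.28 TPM in combination. It did not overlap between groups (log2 fold change 0.92 ± 0.21, SE; adjusted p = 0.526 with limma).

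Dapk1, a calmodulin-dependent kinase linked to cell death, had the smallest unadjusted p. It was at 5.85 to 7.28 TPM in propionate (median 6.635 TPM) and at 9.86, 13.59, 9.23, 8.01 and 11.98 TPM in combination, with no overlap and a log2 fold change of 0.58 ± 0.13 (SE; adjusted p = 0.526 with limma). Cd302, a C-type lectin receptor of myeloid cells, was at 15.25 to 31.47 TPM in propionate (median 23.36 TPM) and at 39.85, 46.89, 41.17, 32.92 and 39.33 TPM in combination, also without overlap. Ccl9, a chemokine of macrophages that draws in myeloid cells through Ccr1, was at 39.73 to 99.7 TPM (median 50.35 TPM) and at 92.44, 139.63, 138.64, 79.15 and 155.47 TPM. Here replicates 1 and 4 lay within the propionate range and the other 3 above it. Rab27a, a regulator of granule release, overlapped between groups, at 1.23 to 3.45 TPM (median 1.805 TPM) against 3.33 to 4.40 TPM, with a log2 fold change of 0.68 ± 0.16 (SE).

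**Figure D1:**
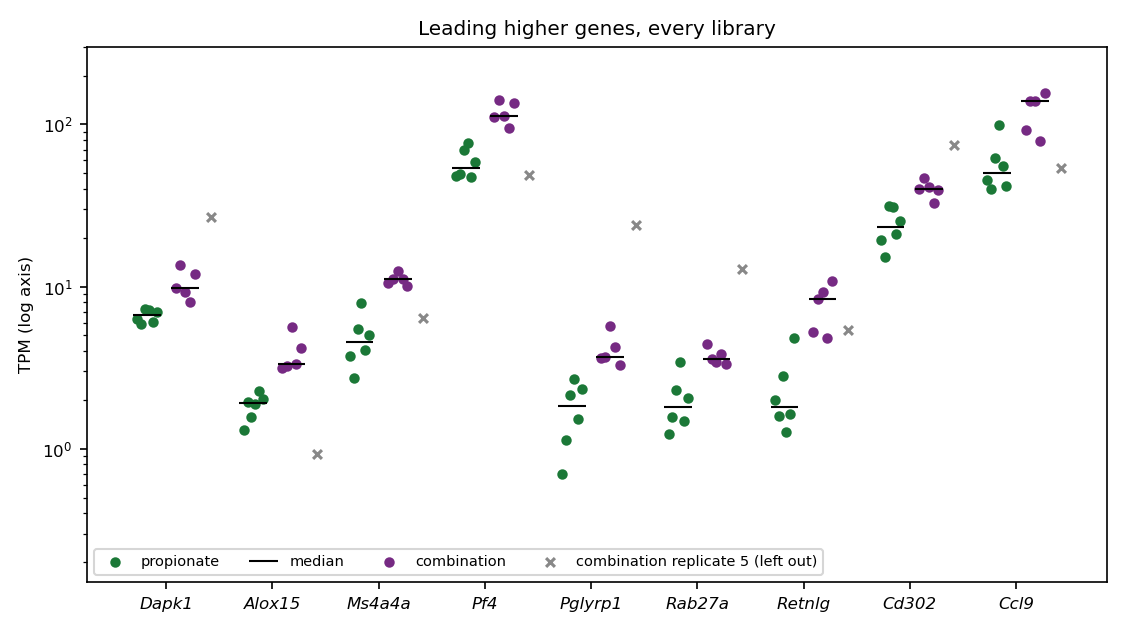
TPM on a log axis of 9 leading higher genes in each library; points are libraries, short lines are group medians, and crosses are combination replicate 5, which was left out. The combination points stand above all propionate points for 6 of the 9 genes, which were picked by their p in this comparison. The left-out library lies below every propionate library for Alox15 at 0.93 TPM.

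On the lower side, Col7a1, Cbfb, Tsc2, Rcan2, Crnde, Pde7a, Prdm15, Slc6a8, Kif3c and Mfn1 led. Their log2 fold changes ran from -0.84 to -0.25, and all had an adjusted p of 0.999 with limma. Col7a1, the anchoring-fibril collagen, had the largest difference. It was at 1.41 to 5.11 TPM in propionate (median 3.37 TPM) and at 1.61, 0.77, 1.55, 1.86 and 1.40 TPM in combination, so 2 combination libraries lay below the propionate range and 3 within it. Tsc2, the subunit of the tuberous sclerosis complex that restrains mTORC1, did not overlap. It was at 19.90 to 26.24 TPM (median 22.505 TPM) and at 17.97, 19.65, 16.58, 16.90 and 18.81 TPM, a log2 fold change of -0.31 ± 0.12 (SE). Slc6a8, the creatine carrier of muscle, was at 35.34 to 51.34 TPM (median 43.715 TPM) and at 29.07, 37.01, 31.94, 32.67 and 41.27 TPM. Mfn1, which fuses mitochondria, was at 31.92 to 64.91 TPM (median 55.83 TPM) and at 41.86, 43.34, 31.59, 33.91 and 40.24 TPM. Apart from Tsc2, the genes whose groups did not overlap in this direction were the stress kinase Map2k7, at a log2 fold change of -0.18 ± 0.11 (SE), Zfand5, at -0.23 ± 0.16 (SE), and A730061H03Rik, at -0.73. These were picked out after their values were seen.

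Most tested members of the immune cell and pathway lists leaned higher with butyrate added, as 75.8% of all genes did, and no member passed adjustment. At an unadjusted p under 0.05 with limma, 4.06% of all genes were higher. The filter of 1 TPM in 5 libraries could be met by the 5 combination libraries alone. A low gene could thus be tested because it was higher there, which favours counts above 0. Lists of other kinds also leaned higher. All 15 endothelial genes were above 0 (median 0.35, 5 at an unadjusted p under 0.05), as were all 17 fibroblast and collagen genes (median 0.20, 1 at that p) and all 23 cytosolic ribosomal protein genes (median 0.28, none at that p). The lists farthest from the all-gene median were neutrophil, cytotoxic lymphocyte, interferon gamma response, tissue macrophage, mast cell and eosinophil, type I interferon response, and class I and class II presentation genes. The medians of their tested members ran from 0.57 to 1.08, against 0.13 over all genes. With median-of-ratios scaling, which set the all-gene median to 0.00, the neutrophil median was 1.01, the tissue macrophage median 0.54, the interferon gamma median 0.55 and the type I interferon median 0.49.

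**Figure D2:**
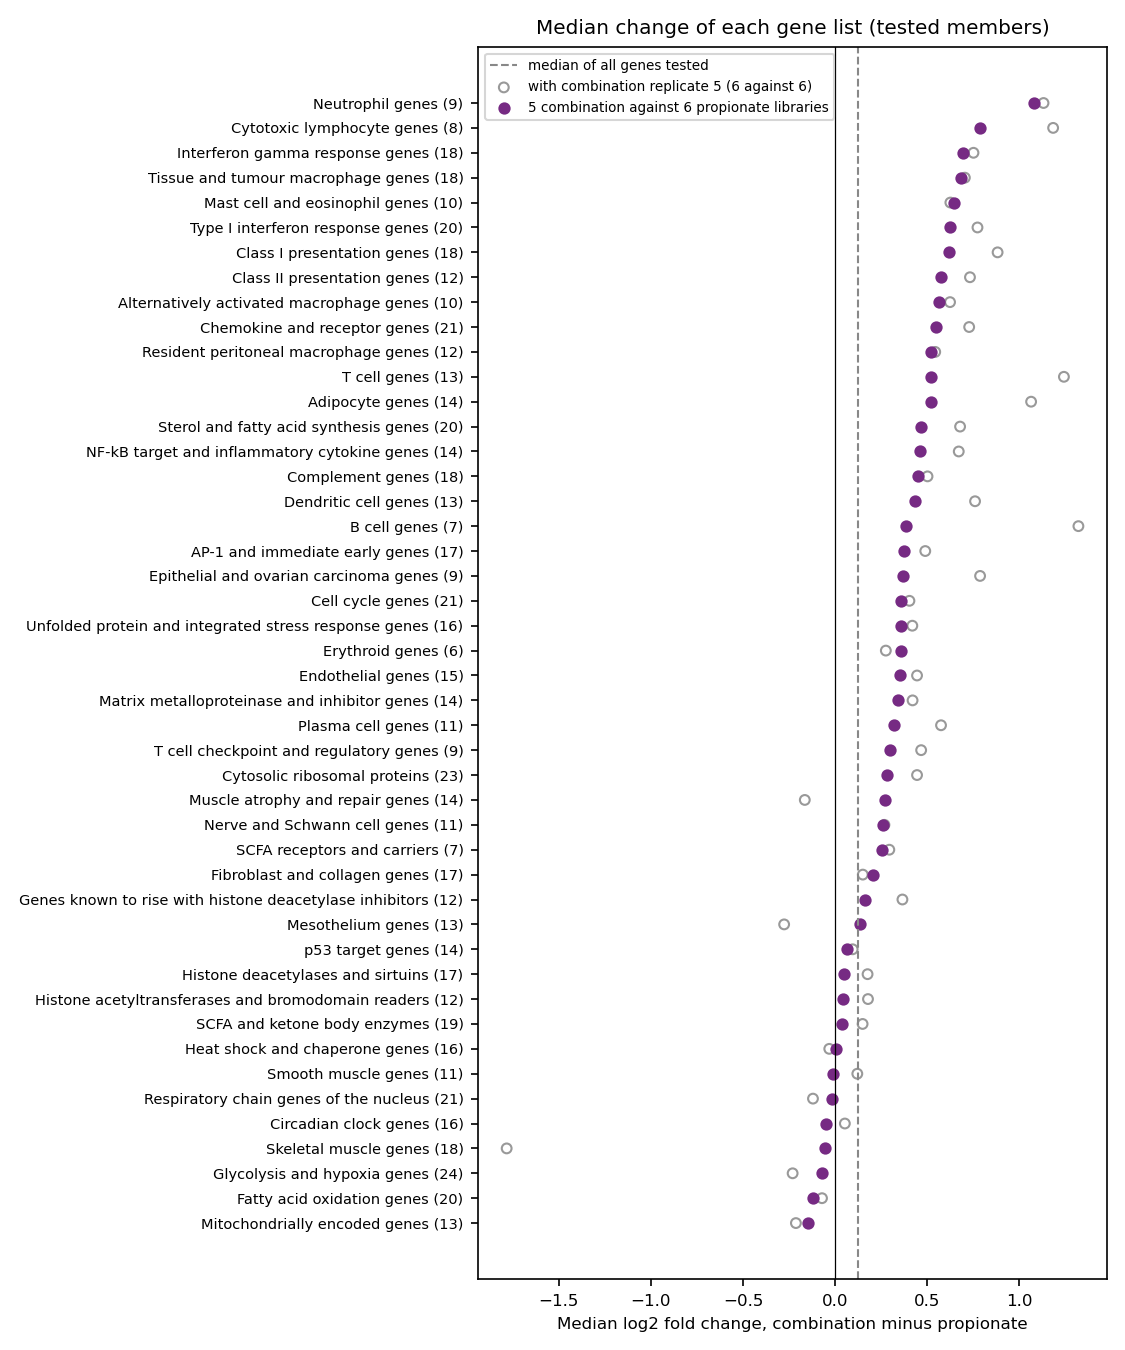
Median log2 fold change (combination minus propionate) of the tested members of each list, with their number in brackets (SCFA, short-chain fatty acid); filled points leave out combination replicate 5 and open points include it, and the dashed line is the all-gene median of 0.13. Neutrophil genes lie farthest right at 1.08, and including replicate 5 moves the skeletal muscle median from -0.05 to -1.78.

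Of 20 neutrophil genes, 9 were expressed highly enough to test. All 9 were above 0 and 7 had an unadjusted p under 0.05, against 4.06% of all genes, with a median log2 fold change of 1.08. Since the combination libraries alone could meet the filter, these counts were favoured by it. S100a8, a subunit of calprotectin, was at 0.98 to 6.87 TPM in propionate (median 3.49 TPM) and at 16.72, 39.94, 8.07, 9.23 and 2.80 TPM in combination replicates 1, 2, 3, 4 and 6. Its partner S100a9 was at 2.98 to 9.74 TPM (median 4.71 TPM) and at 17.5, 66.0, 9.92, 13.06 and 3.82 TPM. For both genes replicate 2 was highest and replicate 6 fell within the propionate range. S100a8 and S100a9 were named after their values were seen, and no fold change without replicate 2 is given for them.

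Mmp9, a gelatinase stored in neutrophil granules, was at 3.79 to 5.14 TPM in propionate (median 4.775 TPM) and at 7.69, 8.03, 11.92, 3.67 and 13.03 TPM in combination. Replicate 4 lay below every propionate library and the other 4 above them all (log2 fold change 0.74 ± 0.32, SE; adjusted p = 0.999 with limma). Il1r2, the decoy receptor for interleukin-1, was at 0.62 to 1.30 TPM (median 1.06 TPM) and at 3.39, 4.58, 1.88, 1.15 and 1.07 TPM. Every combination library was above 1 TPM, so Il1r2 met the filter through that group. Some defining neutrophil genes were near 0 in all 11 libraries: Ly6g reached at most 0.77 TPM, Elane 1.12 TPM and Mpo 0.49 TPM. Without combination replicate 2 the neutrophil list median was 0.75, and the log2 fold change of Il1r2 was 0.45, against 0.65 with it.

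Of 18 tissue and tumour macrophage genes, all were tested and all were above 0, with a median of 0.69. Of these 6 had an unadjusted p under 0.05, against 4.06% of all genes. Mrc1, the mannose receptor, was at 16.84 to 37.11 TPM in propionate (median 22.925 TPM) and at 34.84, 33.83, 60.39, 40.05 and 49.36 TPM in combination. Replicates 3, 4 and 6 were above every propionate library (log2 fold change 0.80 ± 0.23, SE; adjusted p = 0.902 with limma). Folr2, a folate receptor of tissue-resident macrophages, was at 33.05 to 72.19 TPM (median 59.185 TPM). In combination it ran from 65.12 TPM in replicate 2 and 79.15 TPM in replicate 4 to 109.39 TPM in replicate 6 and 121.99 TPM in replicate 3, with replicate 1 between 4 and 6. All but replicate 2 were above the propionate range (0.72 ± 0.26, SE).

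Macrophage scores were also higher in the Wt1-high libraries. The score of the list, the mean log2(TPM + 1) of the 18 genes, was 6.11 and 6.13 in the Wt1-high propionate replicates 3 and 4 and 4.57 to 4.83 in the other 4 propionate libraries. In combination it was 6.48 and 6.04 in the Wt1-high replicates 3 and 4 and 5.40 to 5.73 in replicates 1, 2 and 6. With the first 2 principal components of 8 tissue lists (adipocyte, skeletal and smooth muscle, pancreas, liver, intestine, ovary and erythroid) added to the limma fit as covariates, the macrophage list median was 0.63 and the count of genes with an unadjusted p under 0.05 became 1512 above 0 and 55 below, with none past adjustment. Other lists were lower in that fit. The neutrophil median was 0.73 (1.08 without covariates), the type I interferon median 0.47 (0.62) and the class I median 0.49 (0.62). The log2 fold change of Pf4 was 0.78 (1.03), and the all-gene median 0.08 (0.13).

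**Figure D3:**
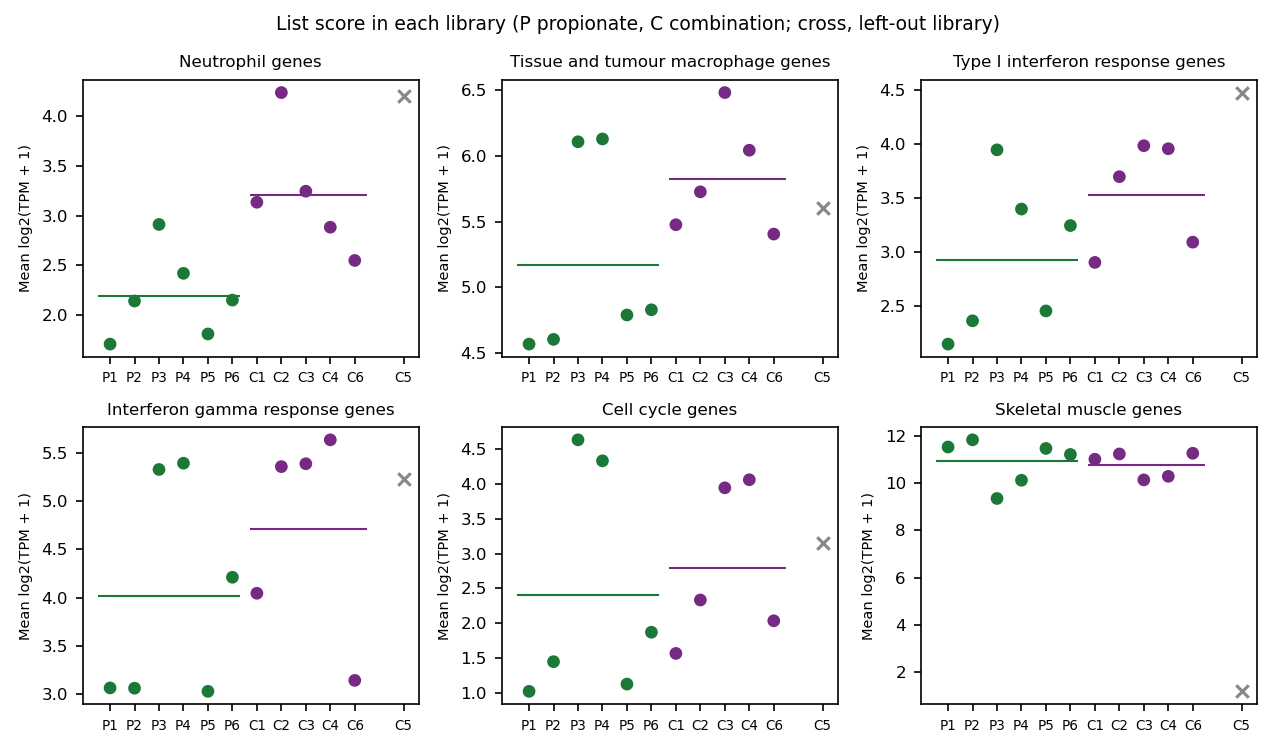
Mean log2(TPM + 1) of 6 gene lists in each propionate (P) and combination (C) library, with horizontal lines at group means and a cross for the left-out combination replicate 5. Macrophage scores are near 6 in the Wt1-high libraries P3, P4, C3 and C4, and among the others C1, C2 and C6 (5.40 to 5.73) stand above P1, P2, P5 and P6 (4.57 to 4.83).

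Of 14 resident peritoneal macrophage genes, 12 were tested and 11 were above 0, with a median of 0.52. Of these 4 had an unadjusted p under 0.05, against 4.06% of all genes. The median was 0.32 without propionate replicate 1, 0.34 without combination replicate 4, 0.78 without propionate replicate 3 and 0.94 with weights per library. Besides Alox15, Saa3, an acute-phase serum amyloid made by macrophages and adipose tissue, had groups that did not overlap. Saa3 was at 7.70 to 43.09 TPM in propionate (median 15.25 TPM) and at 72.6, 93.0, 59.5, 76.3 and 62.4 TPM in combination, a log2 fold change of 1.99 ± 0.61 (SE; adjusted p = 0.961 with limma). In the left-out library Saa3 was at 2.73 TPM, below every propionate library. Timd4, a phosphatidylserine receptor of resident macrophages, was at 2.91 to 4.74 TPM (median 3.73 TPM) and at 6.97, 7.30, 5.42, 4.66 and 9.20 TPM, with replicate 4 inside the propionate range. Gata6, another member, overlapped throughout, at 0.77 to 36.01 TPM (median 2.035 TPM) and at 1.18, 3.37, 26.11, 24.62 and 1.15 TPM. It was highest in the Wt1-high libraries of both groups (0.27 ± 1.00, SE, adjusted p = 0.999 with limma). F13a1, the coagulation factor XIII A chain of macrophages, was in none of these lists. It was at 28.99 to 47.78 TPM (median 37.76 TPM) and at 67.59, 54.43, 82.65, 54.86 and 86.28 TPM, without overlap (0.85 ± 0.25, SE; adjusted p = 0.902 with limma). Saa3, Timd4, Gata6 and F13a1 were named after their values were seen. Of 11 genes of alternatively activated macrophages, 10 were tested and 8 were above 0, a share near that of all genes (75.8%). Their log2 fold changes ran from -0.43 to 0.88. The eosinophil-attracting chemokine Ccl24 did not overlap, at 7.31 to 13.08 TPM against 14.39 to 21.70 TPM (0.69 ± 0.38, SE, adjusted p = 0.999 with limma). Retnla, another member, overlapped widely, at 460 to 1718 TPM against 861 to 2253 TPM (0.57 ± 0.50, SE). Ccl24 and Retnla were named after their values were seen.

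Mast cell and eosinophil genes also leaned higher, with 10 of 16 tested and all 10 above 0. Of these 1 had an unadjusted p under 0.05, against 4.06% of all genes. Their median was 0.65, and 0.43 without combination replicate 3. Ccr3, the eotaxin receptor of eosinophils, was at 0.31 to 1.12 TPM in propionate (median 0.80 TPM) and at 1.35, 1.12, 2.82, 1.19 and 2.92 TPM in combination (log2 fold change 0.68 ± 0.18, SE; adjusted p = 0.902 with limma). All 5 combination libraries were above 1 TPM, so Ccr3 met the filter through them alone. The mast cell proteases Mcpt4 and Cma1 overlapped widely, at 16.42 to 60.46 TPM against 30.14 to 80.84 TPM and at 9.43 to 46.03 TPM against 22.39 to 70.33 TPM. Of 21 chemokine and receptor genes, all tested, 20 were above 0, with a median of 0.55. Of these 9 had an unadjusted p under 0.05, against 4.06% of all genes.

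The interferon genes named here stood above the propionate median in 4 or 5 of the 5 combination libraries. All 20 type I interferon genes were tested and all were above 0, with a median of 0.62. Of these 9 had an unadjusted p under 0.05, against 4.06% of all genes. Of 19 interferon gamma genes, 18 were tested and all 18 were above 0, none at an unadjusted p under 0.05, with a median of 0.69. That median was 0.48 without combination replicate 4 and 0.53 without combination replicate 2. It was 1.07 without combination replicate 6 and 1.34 with weights per library. Oas1a, which makes the messenger that activates RNase L against viral RNA, was at 2.82 to 13.90 TPM in propionate (median 7.24 TPM) and at 8.75, 15.66, 16.33, 15.78 and 11.72 TPM in combination. Replicates 2, 3 and 4 were above the propionate range and 1 and 6 within it (0.86 ± 0.32, SE; adjusted p = 0.999 with limma). Rsad2, the antiviral protein viperin, was at 2.51 to 5.29 TPM (median 3.52 TPM) and at 6.16, 8.84, 6.88, 3.87 and 5.58 TPM, with only replicate 4 inside the propionate range. Tgtp1, a GTPase induced by interferon gamma, was at 3.36 to 23.57 TPM (median 8.80 TPM) and at 11.44, 37.59, 22.93, 21.65 and 5.42 TPM, so only replicate 2 was above the highest propionate library (0.84 ± 0.42, SE). Without replicate 2 its log2 fold change was 0.55. Gbp5, a guanylate-binding protein that promotes inflammasome assembly, was at 4.27 to 16.43 TPM (median 7.715 TPM) and at 9.68, 18.81, 17.68, 22.04 and 5.71 TPM. For Tgtp1 and Gbp5 combination replicate 6 was the lowest of its group.

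The promoters of interferon genes carry a shared element, and 4 of the interferon genes named above are shown because each holds it. The element searched was TTTC, any 2 bases and TTTC again, on either strand, the core of the interferon-stimulated response element, in RefSeq promoters of GRCm38.p6 (300 bases, 250 of them before the gene's start). It was found in 11 of the 13 interferon gamma genes and 7 of the 13 type I interferon genes with an entry, and in 3.99% of all 27025 gene symbols. The 200 bases before the start are printed in the gene's own direction, with matches in capitals. Pf4 is shown with GAGGAAGT, the core bound by the myeloid factor PU.1, on either strand, which 3.69% of all symbols hold. It was found in 5 of 19 neutrophil genes, 2 of 13 tissue macrophage genes and 0 of 8 resident peritoneal macrophage genes with an entry. The 200 bases before the start of Ms4a4a and of Mrc1 did not hold it.
Oas1a (chr5:120907526-120907725, minus strand): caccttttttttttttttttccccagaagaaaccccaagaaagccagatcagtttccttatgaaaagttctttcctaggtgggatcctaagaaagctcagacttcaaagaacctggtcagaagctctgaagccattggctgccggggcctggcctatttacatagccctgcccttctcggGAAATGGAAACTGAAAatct
Rsad2 (chr12:26456453-26456652, minus strand): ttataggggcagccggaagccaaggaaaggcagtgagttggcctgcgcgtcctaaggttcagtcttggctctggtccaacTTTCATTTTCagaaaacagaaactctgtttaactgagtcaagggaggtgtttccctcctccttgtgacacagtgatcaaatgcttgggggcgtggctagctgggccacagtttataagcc
Tgtp1 (chr11:48992247-48992446, minus strand): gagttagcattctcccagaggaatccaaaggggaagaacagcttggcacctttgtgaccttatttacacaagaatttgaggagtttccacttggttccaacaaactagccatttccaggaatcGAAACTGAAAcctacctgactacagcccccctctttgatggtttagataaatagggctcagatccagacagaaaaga
Gbp5 (chr3:142496734-142496933, plus strand): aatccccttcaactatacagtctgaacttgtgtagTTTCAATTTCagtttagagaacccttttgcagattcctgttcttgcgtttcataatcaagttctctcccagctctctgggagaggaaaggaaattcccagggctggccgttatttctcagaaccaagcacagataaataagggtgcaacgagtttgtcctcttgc
Pf4 (chr5:90772235-90772434, plus strand): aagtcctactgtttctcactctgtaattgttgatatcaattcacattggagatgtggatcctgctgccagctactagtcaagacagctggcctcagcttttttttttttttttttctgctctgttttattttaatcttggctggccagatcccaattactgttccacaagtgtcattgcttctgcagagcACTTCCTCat
In Oas1a 2 overlapping matches began 20 and 14 bases before the start. The match began 120 bases before it in Rsad2, 77 in Tgtp1 and 165 in Gbp5, and in Pf4 the other motif began 10 bases before it. A match describes the letters and is no measure of binding.

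Among antigen presentation genes, Psmb8 and Ctss were highest in the Wt1-high libraries of both groups. The class I genes H2-D1 and Psmb10 were highest in those libraries in propionate only. In combination both were highest in replicate 2, with H2-D1 at 813.44 TPM against 717.06 and 674.23 TPM in the Wt1-high replicates 3 and 4. All 18 class I genes were above 0 (median 0.62, from 0.46 without propionate replicate 1 to 0.95 without combination replicate 6, and 0.50 without combination replicate 2). Only 1 of them had an unadjusted p under 0.05, near the share of all genes (4.06%). All 12 class II genes were above 0 as well (median 0.57, none at that p). Psmb8, a subunit of the immunoproteasome, was at 23.57 to 149.39 TPM in propionate (median 41.345 TPM) and at 68.4, 126.78, 166.82, 183.56 and 40.9 TPM in combination. The highest propionate value lay above combination replicates 1, 2 and 6, and the log2 fold change was 0.96 ± 0.52 (SE; adjusted p = 0.999 with limma). Ctss, the protease that trims the invariant chain, was at 38.61 to 375.23 TPM (median 75.14 TPM) and at 105.47, 151.98, 379.49, 353.44 and 71.82 TPM (0.72 ± 0.65, SE). Its log2 fold change was 0.43 without propionate replicate 1 or combination replicate 3, 0.46 without combination replicate 4, and 1.08 without propionate replicate 3 or 4. The class II median was 0.23 without combination replicate 3 and 0.31 without combination replicate 4, both Wt1-high. Omitting propionate replicate 1, 2 or 5 gave 0.32, 0.35 or 0.37, and omitting propionate replicate 3, propionate replicate 4 or combination replicate 6 gave 0.91, 0.90 or 0.88.

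Cytotoxic lymphocyte genes were also above 0 in all 8 tested of 16 (median 0.78, 3 at an unadjusted p under 0.05, against 4.06% of all genes). They share cells with the T cell transcripts by which replicate 5 was left out, so they are not independent of how the libraries were chosen. Gzma, a granule protease, was at 0.66 to 3.19 TPM in propionate (median 1.445 TPM) and at 1.66, 9.21, 6.96, 3.76 and 1.07 TPM in combination. Gzmb, the related protease granzyme B, was at 0.19 to 1.37 TPM (median 0.615 TPM) and at 2.29, 3.82, 1.59, 1.22 and 0.09 TPM. For both, replicate 6 was the lowest combination library. Gzmb met the filter mostly through the combination libraries, as its propionate median was below 1 TPM. Without replicate 2 the log2 fold change of Gzmb was 0.37, against 0.61 with it. That of Gzma was 0.63, against 0.91 with it, and the list median was 0.63. Cd274, which encodes PD-L1, the ligand blocked from meeting PD-1 by anti-PD-1 therapy, was at 2.79 to 9.38 TPM (median 4.33 TPM) and at 6.93, 19.33, 9.44, 11.12 and 3.12 TPM. Its log2 fold change was 0.68 ± 0.32 (SE; adjusted p = 0.999 with limma) and 0.41 without replicate 2. Cd274 had the highest log2 fold change of the T cell checkpoint and regulatory list. Of its 17 genes 9 were tested, 8 were above 0 and 1 had an unadjusted p under 0.05, with a median of 0.30. Pdcd1, which encodes PD-1, did not pass the filter, at 0.07 to 2.11 TPM in propionate and 0.16 to 2.22 TPM in combination. It was named after its values were seen.

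The T cell, B cell, plasma cell and skeletal muscle lists served to choose the libraries and are described without a test. Without replicate 5 their medians were 0.52, 0.39, 0.32 and -0.05, and with it 1.24, 1.32, 0.58 and -1.78. Other single libraries moved them too: omitting 1 of the 11 gave T cell medians of 0.29 to 0.77, plasma cell medians of 0.08 to 0.96 and skeletal muscle medians of -0.39 to 0.14. The lowest T cell and plasma cell values came without combination replicates 3 and 4, and the highest plasma cell value without combination replicate 6. The skeletal muscle extremes came without propionate replicates 3 and 2. Cd2, a T cell adhesion receptor, was at 3.65 to 12.11 TPM in propionate and 4.74 to 14.66 TPM in combination, with 124.78 TPM in replicate 5. Igkc, the kappa light chain, ran from 5.71 to 1996 TPM and from 2.51 to 2830 TPM. Both groups spanned most of that range, with the Wt1-high libraries highest.

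Of 13 genes that sense and carry short-chain fatty acids, 7 passed the filter on low values. Of these, 5 were above 0, near the share of all genes (75.8%), with a median of 0.25 against 0.13 over all genes. The 2 genes Hcar2 and Slc16a7 had an unadjusted p under 0.05, as did 4.06% of all genes. The median was 0.10 with median-of-ratios scaling and 0.16 without propionate replicate 1. Ffar2 did not pass the filter. It was at 0.37 to 1.12 TPM in propionate (median 0.64 TPM) and at 3.04, 6.25, 1.03, 0.65 and 0.81 TPM in combination, so that replicates 1 and 2 alone were above the propionate range. In the left-out library it was at 11.9 TPM. Ffar3 was listed at 0 in all 11 libraries except combination replicate 4, where it was at 0.05 TPM. Hcar2 was at 0.82 to 1.78 TPM (median 1.045 TPM) and at 1.26, 6.18, 1.41, 1.52 and 1.47 TPM. Its log2 fold change of 0.49 ± 0.23 (SE; adjusted p = 0.999 with limma) was 0.17 without combination replicate 2, the library that also held the most Adipoq of the 11.

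Slc16a1, the main carrier of butyrate and propionate, was at 9.45 to 20.89 TPM in propionate (median 15.28 TPM) and at 7.59, 15.75, 15.75, 21.47 and 16.23 TPM in combination. The groups overlapped throughout, with a log2 fold change of -0.03 ± 0.22 (SE; adjusted p = 0.999 with limma) whose sign changed with the setting, from -0.18 with median-of-ratios scaling to 0.19 without combination replicate 1. Slc16a7, a second carrier of the family, was at 0.52 to 3.30 TPM (median 1.56 TPM) and at 2.97, 3.88, 4.09, 2.35 and 3.03 TPM (0.73 ± 0.27, SE). Emb, the chaperone of such carriers, was at 4.01 to 11.25 TPM against 8.56 to 13.83 TPM (0.61 ± 0.30, SE).

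Enzymes that activate and burn these acids showed no shared direction, with 12 of 19 tested above 0 and a median of 0.04, below the all-gene median. The median was -0.12 with median-of-ratios scaling and -0.02 without combination replicate 2. Acss3, a propionyl-CoA synthetase of mitochondria, was at 1.86 to 3.92 TPM and at 5.12, 7.79, 2.47, 2.26 and 3.57 TPM. Pcca, a subunit of propionyl-CoA carboxylase, was at 14.92 to 22.47 TPM and at 16.74, 31.18, 20.72, 19.75 and 19.39 TPM. Replicate 2 was the highest for both, and without it their log2 fold changes were 0.14 and 0.04, against 0.35 and 0.17.

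No gene tied to histone acetylation had an unadjusted p under 0.05. Of 17 histone deacetylases and sirtuins, 12 were above 0 with a median of 0.05, and of 12 acetyltransferases and bromodomain readers 8 were above 0 with a median of 0.04, where 75.8% of all genes were above 0 with a median of 0.13. Both medians changed sign with median-of-ratios scaling, to -0.08 and -0.09. Leaving out 1 library moved the deacetylase median from -0.01 (without combination replicate 3) to 0.19 (without propionate replicate 3). It moved the acetyltransferase and reader median from -0.06 (without propionate replicate 1) to 0.21 (without propionate replicate 3). Of 12 genes known to rise with deacetylase inhibitors, 10 were above 0 with a median of 0.16. That median was 0.00 with median-of-ratios scaling, and 0.25, 0.29 and 0.28 without propionate replicate 3, propionate replicate 4 and combination replicate 1. Cdkn1a, the cell cycle inhibitor p21 and a textbook target of such inhibitors, was at 25.24 to 50.87 TPM in propionate (median 33.75 TPM) and at 47.26, 39.95, 28.39, 36.19 and 30.65 TPM in combination (0.06 ± 0.19, SE; adjusted p = 0.999 with limma). Its sign changed without combination replicate 1 (-0.04), without propionate replicate 1 (-0.03) and under both scalings. Klf4, a transcription factor of macrophages and epithelia, was at 5.03 to 18.85 TPM (median 9.02 TPM) and at 12.70, 13.45, 13.18, 13.55 and 12.63 TPM. The combination libraries were close together and lay inside the wide propionate range (0.40 ± 0.26, SE). The log2 fold change was 0.23 without propionate replicate 2, 0.21 with quantile normalization and 0.26 with median-of-ratios scaling.

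Genes of fatty acid oxidation and of the mitochondrial genome leaned the other way. Of 20 fatty acid oxidation genes 18 were below 0 with a median of -0.12, and of 13 mitochondrially encoded genes 12 were below 0 with a median of -0.15, while 75.8% of all genes were above 0. None in either list had an unadjusted p under 0.05. Lists of respiratory chain genes of the nucleus (15 of 21 below 0, median -0.02), glycolysis and hypoxia genes (16 of 24, -0.07) and skeletal muscle genes (12 of 18, -0.05) also leaned lower. With library number as a block these 3 medians were 0.11, 0.10 and 0.18. The fatty acid oxidation median was 0.00 without propionate replicate 2 and -0.07 without combination replicate 4. The mitochondrial median ran from -0.24 without propionate replicate 3 to -0.07 without propionate replicate 5, was also smaller in size without propionate replicate 1 or combination replicate 3 or 4 (-0.09, -0.08 and -0.10) and larger without combination replicate 1 (-0.23), and was -0.02 with quantile normalization. Genes of sterol and fatty acid synthesis were all above 0 (20 of 20, median 0.46), as were 14 adipocyte genes (median 0.52). At an unadjusted p under 0.05 there was 1 synthesis gene, near the share of all genes (4.06%), and no adipocyte gene. The synthesis median was 0.24 without propionate replicate 2, 0.29 without combination replicate 4, 0.76 without propionate replicate 3 and 0.15 with library number as a block. The adipocyte median was 0.18 without combination replicate 2 and 1.06 with replicate 5, the 2 libraries richest in Adipoq, and 0.85 without combination replicate 3. All 21 tested cell cycle genes were above 0 with a median of 0.36, none at an unadjusted p under 0.05. Mki67 was at 0.22 to 14.98 TPM in propionate (median 0.91 TPM) and at 0.94, 1.93, 9.04, 9.68 and 1.60 TPM, with the Wt1-high libraries highest in both groups. Its log2 fold change was 0.45 ± 0.76 (SE), from 0.13 without combination replicate 4 to 0.92 without propionate replicate 3 when single libraries were omitted, and 0.17 with library number as a block. The cell cycle median was 0.09 without combination replicate 3, 0.05 without combination replicate 4 and 0.81 without propionate replicate 3, and omitting any single library other than propionate replicate 6 or combination replicate 2 moved it by more than 1.5 times.

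Butyrate given alone offers the matching step from no treatment, with other libraries. For the 9 leading higher genes the log2 difference between butyrate and control ran from -0.14 to 0.41, and the difference of the 2 steps (butyrate on propionate minus butyrate on no treatment) from 0.41 to 1.04. These genes were chosen for a high value of the step on propionate, which is a term of that difference, so its sign in them is largely set by the choice. The difference had an adjusted p of 0.187 with limma in each of the 9. Pf4 was at 66.1 ± 13.7 TPM (SD, n = 6) in control, 81.2 ± 43.9 (n = 6) with butyrate, 58.3 ± 12.3 (n = 6) with propionate and 119 ± 19.0 (n = 5) with both. Alox15 was at 2.03 ± 0.64, 1.75 ± 0.58, 1.84 ± 0.35 and 3.90 ± 1.05 TPM in the same order and with the same n. The mean of the combination libraries was the highest of the 4 groups for all 9 genes, which the same choice favours.

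Saa3 had another order. It was at 91.2 ± 57.8 TPM (SD, n = 6) in control, 28.8 ± 19.4 (n = 6) with butyrate, 21.0 ± 14.7 (n = 6) with propionate and 72.8 ± 13.3 (n = 5) with both, so control and combination were the higher groups. Slc16a1 was at 21.9 ± 4.07 TPM in control, 12.3 ± 1.84 with butyrate, 15.5 ± 4.68 with propionate and 15.4 ± 4.97 with both, and its difference of steps was 0.75 on the log2 scale.

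**Figure D4:**
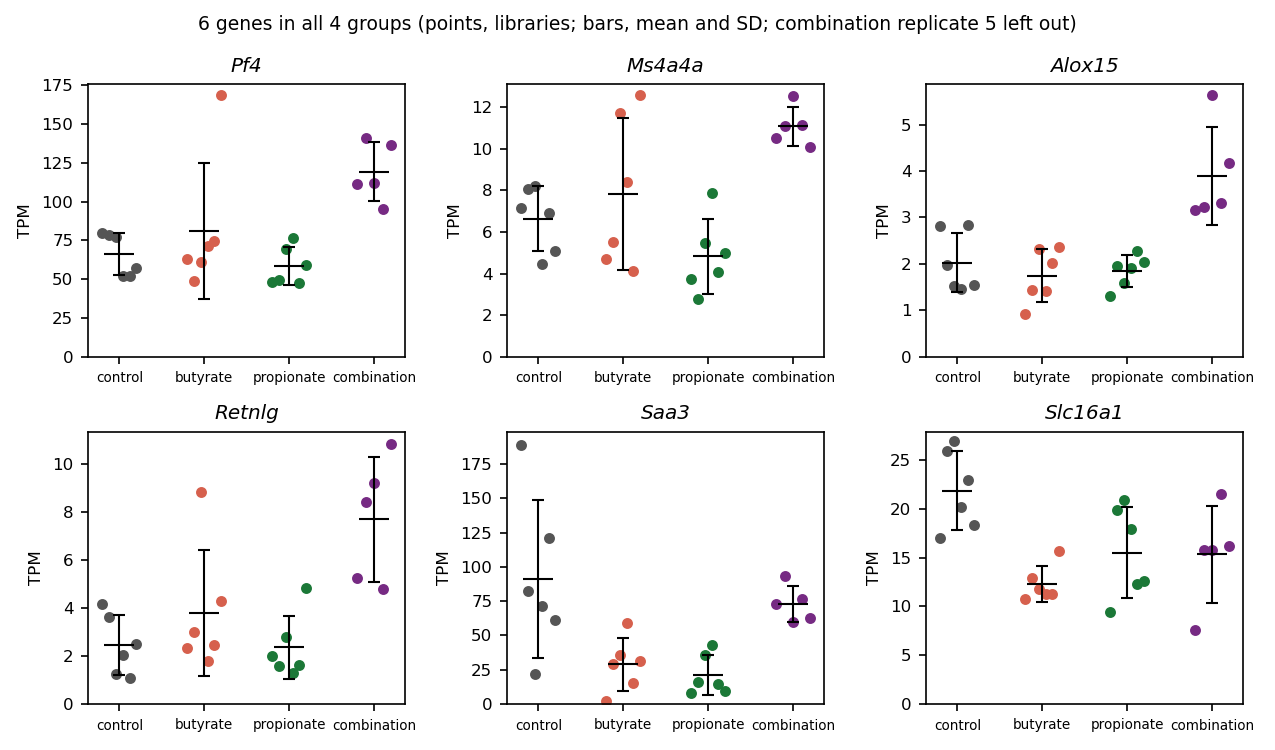
TPM of 6 genes in all 4 groups; points are libraries, horizontal marks are means and bars are SD (control, butyrate and propionate n = 6, combination n = 5 without replicate 5). Pf4, Ms4a4a, Alox15 and Retnlg, picked by their p for combination above propionate, have their highest mean in the combination group. Butyrate replicate 6 holds more Pf4 (168.88 TPM) and slightly more Ms4a4a (12.6 TPM) than any compared combination library. The mean of Saa3 is high in control and combination.

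Across all genes, 3660 (26.2%) had a difference of steps above 0 at an unadjusted p under 0.05 and 75 (0.536%) below 0, and none passed adjustment (smallest adjusted p 0.187 with limma). In all 82.7% were above 0, with a median of 0.52 on the log2 scale. With median-of-ratios scaling the median was 0.02 and the counts were 1150 above and 757 below, and with quantile normalization -0.05, 904 and 946. With library number as a block, 3892 genes passed an adjusted p of 0.05 above 0 and 22 below. Leaving out single libraries moved the count above 0 from 1777 without combination replicate 3 to 7098 without propionate replicate 3. Omitting propionate replicate 1, 2, 4 or 5 gave 1785, 2217, 6081 or 1934, and omitting combination replicate 4 gave 1923. Wt1 was at 217 ± 135 TPM (SD, n = 6) in control and 47.5 ± 63.7 (n = 6) with butyrate, so tissue and treatment cannot be told apart in this step.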

How the data were processed

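PolyA RNA of mouse peritoneal tissue was sequenced in 24 libraries, of which 11 were compared. The authors deposited a table of TPM per transcript row (149132 rows). The submitters' processing notes name fastp, HISAT2, StringTie and the build mm39, with no versions or settings. The labels' protocols describe a stranded kit, and whether counting used strand is not given there. Read depth is unknown, since TPM keeps none, so no counting interval is given. The 1001 rows without a gene name (0.175 to 0.395% of TPM in the compared libraries) were dropped, and the rest were summed into 56422 gene names. The 50 most abundant genes took 32.49 to 58.72% of TPM and mitochondrially encoded genes 14.08 to 24.82%.

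Values were log2(TPM + 1), which understates the change of low genes. Genes with at least 1 TPM in 5 of the 11 compared libraries were tested with limma 3.58.1 in R 4.3.3, using 23 libraries (all but combination replicate 5), 4 group means, and trended, robust moderation, with Benjamini-Hochberg adjustment over all genes. Tables were handled in Python 3.11.15 with pandas 2.3.3. The fitting script was tested on simulated data with a capped spread and changes larger than those reported here. That test therefore says nothing of the power of this comparison. Named genes were the 10 leading genes in each direction by unadjusted p whose log2(TPM + 1) averaged 1 or more, passing over predicted genes and the lists used to leave out a library; up to 3 members of the 8 lists farthest from the all-gene median and of the short-chain fatty acid lists; the 2 most abundant members of the lists used for leaving out; and 9 genes fixed by name. Some of the genes this rule names are not reported here, and none was put in their place. Members and lists were chosen with earlier results of these data known.

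The deviations of same-numbered libraries from their group means correlated at 0.69, 0.342, 0.792, 0.777 and 0.438 for the 5 pairs by title number. By library number the 3 pairs gave 0.69, 0.764 and 0.683. Propionate replicate 3 had a different partner under each number, and libraries of unlike number were not compared. These values therefore cannot show pairing. Both numbers were also fitted as a block. The other alternatives were another pseudocount (0.1), other filters, median-of-ratios and quantile scaling, weights per library, tissue covariates, inclusion of combination replicate 5, and leaving out each library.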

Additional observations from a re-analysis of the deposited data

Results flagged for a closer look

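A single library lay far from the rest of its group in 6 of the 176 sets of values examined (Dixon's criterion, which marks about 1 set in 20 by chance). Rcan2, an inhibitor of calcineurin, was at 34.78 TPM and Kif3c, a kinesin motor, at 13.69 TPM in propionate replicate 2, both on the high side. Folr2 was at 33.05 TPM in propionate replicate 6, the low side. Hcar2 was at 6.18 TPM in combination replicate 2, Hdac9 at 4.05 TPM in combination replicate 1, and Ffar3 at 0.05 TPM in combination replicate 4, where the other combination libraries were listed at 0.

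The left-out combination replicate 5 carried lymphocyte signal above every control library. Its T cell score (mean log2(TPM + 1)) was 6.09 against at most 1.86 in control, its B cell score 7.44 against 2.47, and its plasma cell score 5.74 against 5.39. The plasma cell score did not set it apart from the compared libraries, of which propionate replicate 4 (6.01) and combination replicate 3 (6.11) were higher.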

How the results depend on the processing

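No gene differed between the groups at an adjusted p under 0.05 under 22 of the 23 alternatives; the exception was weights per library, with 3195 higher and 136 lower. The counts at an unadjusted p under 0.05, higher then lower, were 5602 and 376 with weights, 1045 and 215 with no filter on low values, 347 and 15 with a filter of 5 TPM, 1223 and 63 with combination replicate 5, and 1512 and 55 with tissue covariates. The higher count was 315 with only the 11 compared libraries. The lower count was 212 with median-of-ratios scaling, 307 with quantile normalization and 105 with the library-number block. Leaving out 1 library gave 308 to 1298 higher and 22 to 52 lower.

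For the difference of the 2 butyrate steps, 10026 genes passed with weights and 3914 with the library-number block, and none under the other alternatives that could give it (the fit of only the 11 compared libraries cannot). At an unadjusted p under 0.05 there were 1907 with median-of-ratios scaling, 1850 with quantile normalization, 10339 with weights and 7262 with the library-number block, and 1819 to 7363 without 1 library. The blocks on title or library number changed no other call.

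Of 1058 list medians under alternatives, 13 moved by more than the spread between libraries, and the cause was not tested. With combination replicate 5 these were B cell genes at 1.32, skeletal muscle at -1.78, glycolysis at -0.23, muscle atrophy and repair at -0.16 and short-chain fatty acid enzymes at 0.15. With median-of-ratios scaling the enzymes were at -0.12 and glycolysis at -0.23, and with quantile normalization the enzymes were at -0.0761. With the library-number block glycolysis was at 0.10 and the short-chain fatty acid receptors and carriers at 0.48; the latter were at 0.032 with the 5 TPM filter. Heat shock genes were at 0.34 with weights. Without 1 library the glycolysis median ran from -0.1674 to 0.0752.

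Of 1387 values of 61 named genes, 1325 kept their direction and their side of the threshold, 43 passed it (all with weights) and 19 changed sign. Those 19 were Kat6a with quantile normalization (-0.0269), Brd2 with the library-number block (-0.0017), and values of Slc16a1, Cdkn1a and Wt1. Slc16a1 was at 0.17 with weights, 0.0622 with the library-number block, and -0.16 to 0.19 without 1 library. Cdkn1a was at -0.10 with median-of-ratios scaling, -0.0547 with quantile normalization, -0.0229 with tissue covariates, and -0.0408 to 0.17 without 1 library. Wt1 was at -0.26 with combination replicate 5, -0.0069 with the library-number block, and -0.26 to 1.36 without 1 library. The TPM unit keeps no read depth, so the precision of low genes such as Ffar2 and Ffar3 could not be set.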
